A study of Homo sapiens with 6 samples.

Results

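The genes described here are 32 regulators and established direct targets of the transcription factor p53, followed in NCI-H226 cells given the compound HC278. They were chosen by name, as rows of the deposited table whose gene symbol is on a fixed list. For short, all are called p53 targets below, regulators such as MDM4 included. All 32 were found among the 60676 genes of the table, and 29 of them passed the filter on low counts that 15510 genes passed in all. CDKN1A is not on that list and is given beside it.

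NCI-H226 is an established line of human tumour cells, given in the labels as mesothelioma of pleural origin. The HC278 group was given 500 nM of the compound for 24 h, and its libraries are numbered 1, 2 and 6. The DMSO group was given this vehicle for 24 h, and its libraries are numbered 1, 2 and 3. Both groups share the cell line and a medium of DMEM with 10% FBS, and the series title names HC278 as a degrader of TEAD, the family of DNA-binding proteins through which YAP and TAZ act. The labels write the compound as HC278 or HC31278A, taken here as 1 compound, and nothing in them says that the libraries came from separate cultures, so the p-values measure only how far these libraries lie from each other, and that may be technical.

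The p53 protein is held at a low level in unstressed cells by MDM2, a ubiquitin ligase that marks it for destruction, and by MDM4, which binds and masks it. DNA damage and other stresses release it, after which it binds paired copies of a short DNA element, the half-site, near its targets and raises their transcription. The targets halt the cell cycle, repair DNA, limit growth or prepare cell death, and MDM2 is itself a target, which closes a negative feedback loop. Known targets are read in many laboratories as a measure of p53 activity, although most also answer to other factors.

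The promoters of 24 of the 32 genes were in the RefSeq table of human build GRCh38.p14, as 38 windows from 250 bases before to 50 bases after a transcription start. They were searched for exact matches to the p53 half-site consensus, which reads the same on both strands. It was found in 7 of the 38 windows (18.4%), against 2329 of all 35116 promoter windows (6.63%). A pair of half-sites separated by at most 13 bases was found in 1 member window, that of DDB2, and in 10 of all windows (0.0285%). The 7 matches are shown because they give the element the family is named for as it stands in its members; capitals mark the half-sites, and each run reads 5′ to 3′ on the gene's own strand.
DDB2, chr11:47214979-47214999, plus strand: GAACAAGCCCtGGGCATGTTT
PLK2, chr5:58460184-58460243, minus strand: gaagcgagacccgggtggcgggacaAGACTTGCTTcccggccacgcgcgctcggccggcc
FAS, chr10:88991284-88991343, plus strand: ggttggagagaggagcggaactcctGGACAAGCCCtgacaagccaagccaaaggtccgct
AEN, chr15:88621281-88621339, plus strand: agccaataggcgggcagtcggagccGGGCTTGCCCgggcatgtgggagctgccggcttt
SESN1, chr6:109009003-109009062, minus strand: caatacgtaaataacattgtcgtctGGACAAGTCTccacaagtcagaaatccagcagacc
RPS27L, chr15:63157502-63157561, minus strand: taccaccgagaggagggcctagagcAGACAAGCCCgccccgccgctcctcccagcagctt
FDXR, chr17:74872995-74873030, minus strand: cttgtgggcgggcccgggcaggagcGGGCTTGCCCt
The DDB2 pair began at position 6 counted from the start as position 1, within the transcribed part, and the other half-sites began upstream, between position -132 in PLK2 and position -11 in FDXR. A match describes these letters only and is not a measured binding site, and p53 sites that lie in introns or farther away are outside these windows.

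Total counts per library lay between 30486316 and 33181814, so that 3 counts, the smallest number taken as detection, correspond to 0.0904 to 0.0984 CPM (counts for each 1e+06 counted reads). Of 12 mesothelial marker genes 11 were measured above the filter, among them MSLN, WT1 and the keratins KRT8, KRT18 and KRT19, while KRT5 was at 0 in every DMSO library. Of those 11 tested mesothelial markers CALB2, UPK3B and ITLN1 (27.3%) rose and none fell, beside 5.4% and 5.38% of all tested genes. Without HC278 replicate 6, 5 (45.5%) rose and 2 (18.2%), WT1 and BNC1, fell, beside 19.8% and 20.7% of all genes in that fit. Of 7 markers of lung epithelium and squamous cells NAPSA alone was tested, and it rose (0.383 CPM in HC278 cells and 0.0907 CPM in DMSO cells), while SCGB1A1 was at 0 in all 6 libraries. Of 4 fibroblast markers COL1A1 alone was tested, at 3.18 CPM in HC278 cells and 4.21 CPM in DMSO cells, and LUM was at 0 in all 6 libraries. Among immune markers CD3E was at 0 in all 6, and those that rose were CD68 (70.3 CPM in HC278 cells and 37.5 CPM in DMSO cells) and CD14 (1.71 CPM in HC278 cells and 0.677 CPM in DMSO cells), which macrophages also express. PTPRC, a blood cell marker, and LYZ were not tested. PTPRC averaged 0.201 CPM in HC278 cells and 0.0607 CPM in DMSO cells, and LYZ 0.0637 and 0.111 CPM. Of 4 endothelial markers VWF alone was tested, at 0.855 CPM in HC278 cells and 0.555 CPM in DMSO cells, and its groups overlapped. The part of these genes in the results was not tested.
HC278 replicate 6 and, to a lesser degree, DMSO replicate 3 stood apart from the other libraries of their groups. In 27 of the 29 tested p53 targets (93.1%; all tested genes, 83.7%) these libraries deviated in the same direction from replicates 1 and 2 of their own group. HC278 replicate 6 was the highest of the 6 libraries in 12 of the 29 members (41.4%, against 30.8% of all tested genes) and the lowest in 8 (27.6%, against 29.7%). The 12 had a median summed exon length of 5256 bp and the 8 one of 3421 bp, and over all tested genes the medians were 6868 and 3281 bp. The largest deviation upward was that of ACER2, by 2.66 on the log2 scale, and the largest downward that of GDF15, at -1.12. Results are therefore given with all 6 libraries and without HC278 replicate 6. That second fit keeps HC278 replicates 1 and 2 alone, and the library was left out after its values were seen. The common biological coefficient of variation was 26.0% with all 6 libraries and 12.7% without it. The p-values of that fit can therefore overstate the certainty of its calls.

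**Figure D1:**
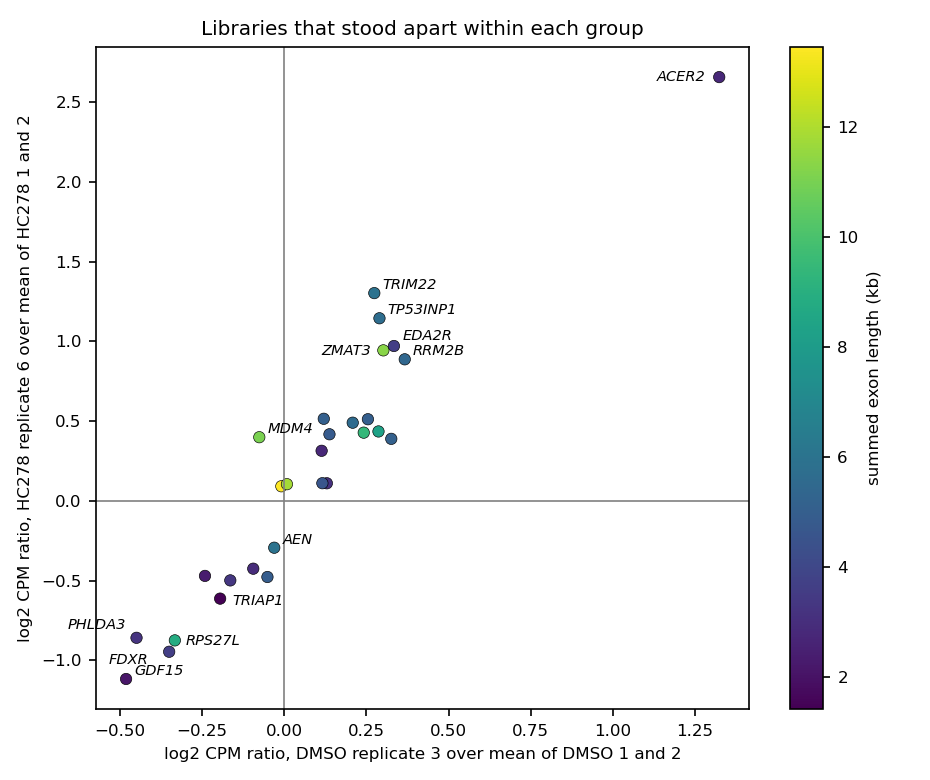
Each point is 1 of the 29 tested p53 targets; the horizontal axis is the log2 ratio of CPM in DMSO replicate 3 over the mean of DMSO replicates 1 and 2, the vertical axis the same ratio for HC278 replicate 6 over HC278 replicates 1 and 2, and colour the summed exon length. Of the 29 points 27 lie in the lower left or the upper right, from GDF15 to ACER2.

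With all 6 libraries, PLK2 was the 1 p53 target called as changed, and it fell. None of the 29 tested members passed as higher, and 28 did not pass in either direction. Calls required an adjusted p under 0.05 by edgeR's quasi-likelihood test with Benjamini-Hochberg adjustment over all 15510 tested genes. The 1 call is 3.45% of the members, against 10.8% of all tested genes, of which 837 (5.4%) rose and 835 (5.38%) fell. The log2 fold changes of HC278 over DMSO were above 0 in 16 members and below 0 in 13, with a median of 0.01, against a median of 0.05 over all tested genes. Their median size without regard to sign was 0.21, against 0.30 over all tested genes. At an unadjusted p under 0.05 there were 7 members (24.1%), 1 higher and 6 lower, against 26.5% of all tested genes. DESeq2 called 1 member higher, TP53INP1, and 6 lower, beside 8.79% and 9.37% of all tested genes (18.2% in either direction). With limma-voom none was higher and PLK2 was lower, beside 834 and 862 of all 15510 tested genes.

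Without HC278 replicate 6 the same test called 16 members, in both directions. The 6 that rose were PLK3, TP53INP1, DDB2, RPS27L, FDXR and GDF15. The 10 that fell were PLK2, ZMAT3, CCNG1, POLH, FAS, TIGAR, FBXO22, AEN, PPM1D and EDA2R. These are 20.7% and 34.5% of the members, beside 19.8% and 20.7% of the 15812 genes tested in that fit, or 40.6% in either direction. The median log2 fold change of the members was then -0.13, against 0.01 over all genes in that fit. Without HC278 replicate 6 and DMSO replicate 3 together, 6 members (20.7%) rose and 9 (31.0%) fell, beside 19.5% and 20.9% of all 15637 genes tested then. With a smooth trend of each library on gene length taken out and all 6 libraries kept, none rose and PLK2, POLH, FAS and PPM1D fell, while 8.15% of all tested genes rose and 9.2% fell.

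The groups did not overlap in 10 of the 29 members, a share close to the 34.6% of all tested genes. Every HC278 library lay below every DMSO library in 8 of them, PLK2, FAS, PPM1D, POLH, AEN, TIGAR, CCNG1 and FBXO22, against 17.5% of all tested genes. HC278 libraries all lay above in MDM2 and TP53INP1, against 17% of all tested genes. In 23 of the 29 members the 95% interval of the fold change lay within a 2-fold change in either direction, and the 6 whose interval reached beyond it were ACER2, FAS, GDF15, PPM1D, TP53INP1 and TRIM22.

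**Figure D2:**
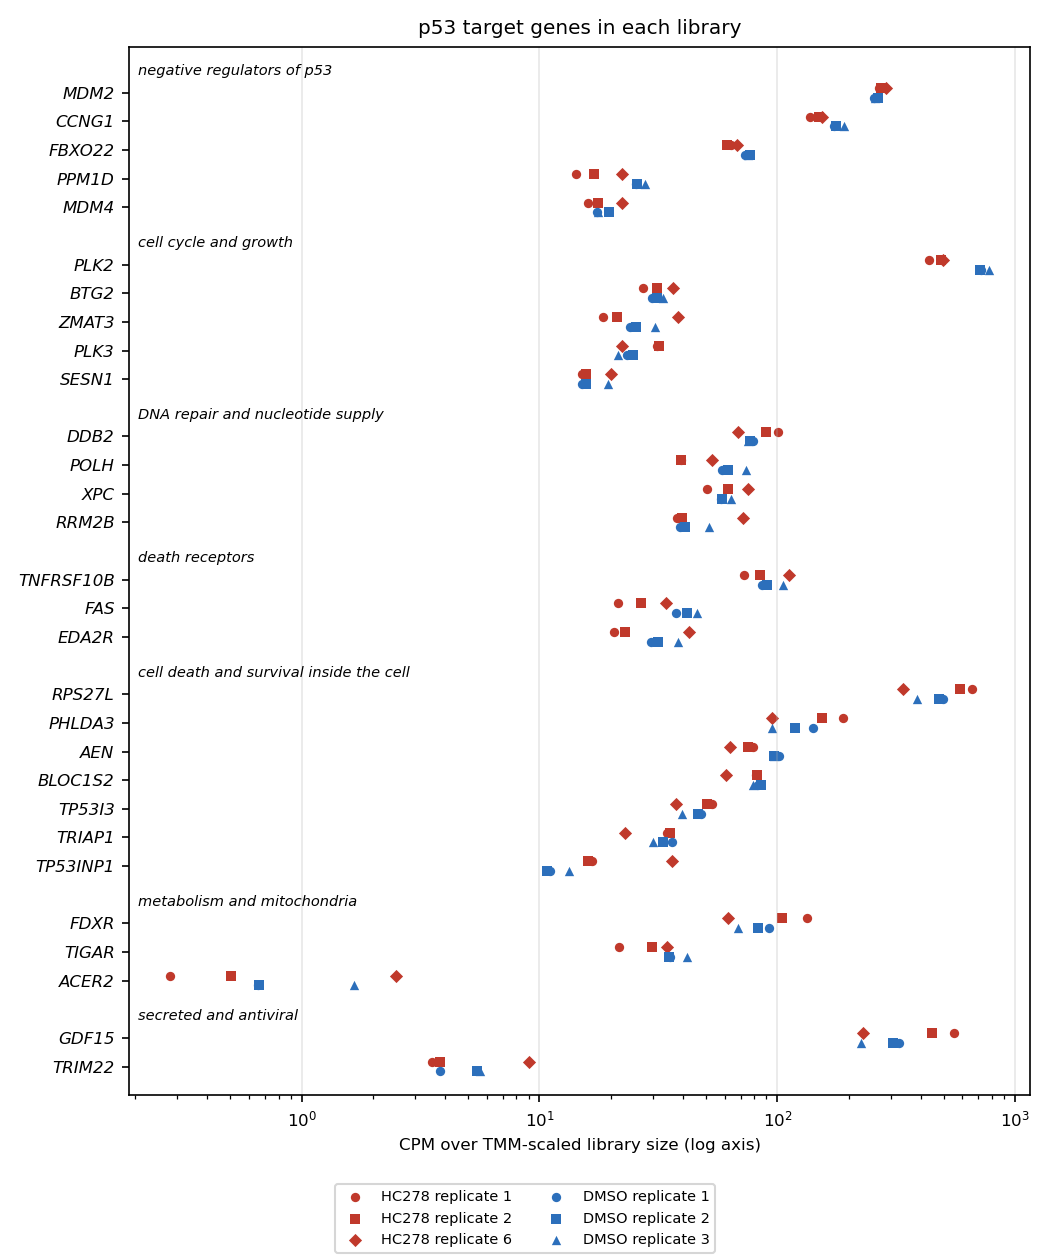
CPM of the 29 tested p53 targets in each library, over TMM-scaled library size on a log axis, with HC278 libraries in red and DMSO libraries in blue and genes grouped by role. In 19 genes the groups overlap, and the HC278 points lie to the left of all DMSO points in 8, PLK2 and PPM1D among them.

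**Figure D3:**
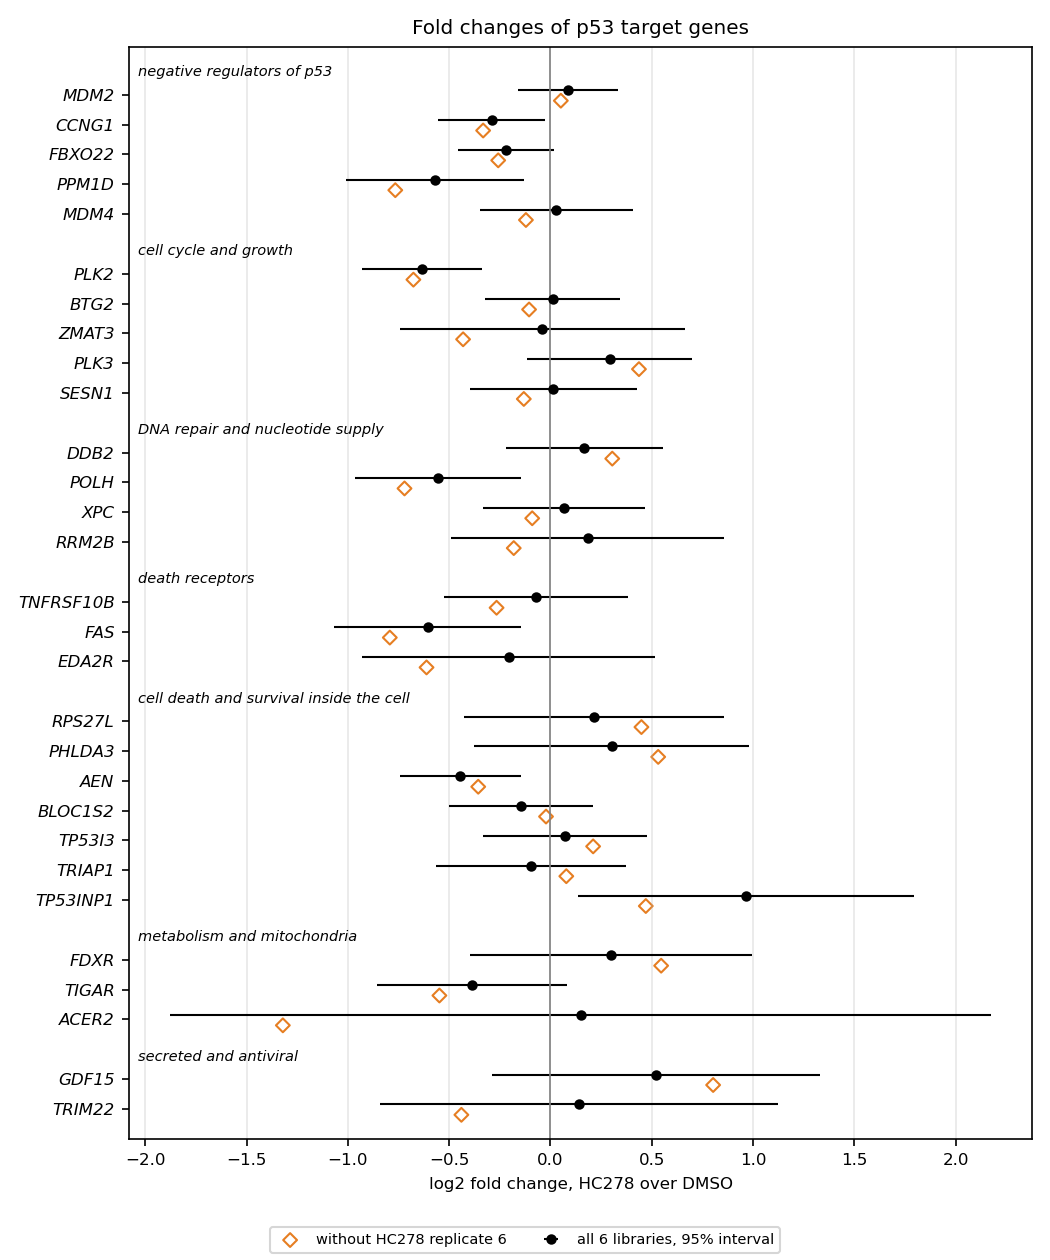
Log2 fold change of HC278 over DMSO for each of the 29 tested p53 targets, as a black point with its 95% interval from all 6 libraries and as an open orange diamond without HC278 replicate 6. PLK2 has an interval from -0.93 to -0.34, and the diamonds of GDF15 (0.80) and EDA2R (-0.61) lie farther from 0 than their points.

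The negative regulators of p53 were measured in all 5 of the listed genes, and none passed with all 6 libraries. In what follows, values per library are CPM over the TMM-scaled library size, in the order of replicates 1, 2 and 6 for HC278 and 1, 2 and 3 for DMSO. MDM2, the ubiquitin ligase that degrades p53, had 267, 271 and 287 CPM in HC278 cells, against 254, 265 and 258 CPM in DMSO cells. Its HC278 libraries were all above its DMSO libraries, by a small margin. The log2 fold change was 0.09 ± 0.10 (SE), with a 95% interval from -0.16 to 0.34 and an adjusted p of 0.662, and without HC278 replicate 6 it was 0.05 with an adjusted p of 0.614.
MDM4, the relative that masks p53's activating domain, had 15.95, 17.7 and 22.2 CPM in HC278 cells and 17.5, 19.7 and 17.6 CPM in DMSO cells. Its groups overlapped, with the lowest and the highest value both in HC278 cells. The log2 fold change was 0.03 with an interval from -0.35 to 0.41.

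PPM1D, which encodes the phosphatase WIP1 that removes activating phosphates from p53 and the kinases upstream of it, had 14.2, 16.9 and 22.2 CPM in HC278 cells, against 25.4, 25.8 and 27.9 CPM in DMSO cells. Every HC278 library was below every DMSO library, and replicate 6 came nearest to them. For PPM1D the log2 fold change was -0.57 ± 0.18 (SE), which did not pass (adjusted p = 0.105). Without HC278 replicate 6 it was -0.77 and passed (adjusted p = 0.00458).
CCNG1, or cyclin G1, which recruits a phosphatase to MDM2, had 137, 149.6 and 155 CPM in HC278 cells, against 173, 176 and 191 CPM in DMSO cells. The groups did not overlap. Its log2 fold change was -0.29 ± 0.11 (SE; adjusted p = 0.154), and leaving out HC278 replicate 6 gave -0.33, which passed (adjusted p = 0.0310).
FBXO22, a subunit of a ubiquitin ligase that acts on p53 in complex with a histone demethylase, had 63.9, 61.7 and 67.5 CPM in HC278 cells, against 73.1, 76.5 and 75.2 CPM in DMSO cells. The 3 HC278 values lay close together below the DMSO values. For FBXO22 the log2 fold change was -0.22 ± 0.10 (SE; adjusted p = 0.222), and -0.26 without HC278 replicate 6 (adjusted p = 0.0415).

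Among the 5 targets that act on the cell cycle and growth, PLK2 fell and the other 4 did not pass with all 6 libraries. PLK2, a polo-like kinase of centriole duplication and the stress response, lies at chr5:58453982-58460139 on the minus strand, and its promoter half-site is shown above. It had 435, 487 and 498 CPM in HC278 cells, against 716, 714 and 775 CPM in DMSO cells. Each group's values lay close together and the groups were far apart. The means were 473 ± 33.9 CPM in HC278 cells and 735 ± 34.5 CPM in DMSO cells (SD, n = 3 each), a fold of 0.644. The log2 fold change was -0.63 ± 0.12 (SE), with a 95% interval from -0.93 to -0.34 and an adjusted p of 0.0270 by edgeR's quasi-likelihood test. PLK2 was also the most abundant member per summed exon length, at 509 TPM in DMSO cells, above 98.4% of tested genes. In bulk RNA, fewer cells that express a gene and less of its RNA per cell cannot be told apart. The call held with all 6 libraries and with HC278 replicate 6 alone left out. Without any one of the other 5 libraries the adjusted p lay between 0.0741 and 0.139. The log2 fold change then lay between -0.66 and -0.58. Calls were fewer over the whole table in those fits, where 0 to 401 genes rose and 0 to 418 fell of 15881 to 15999 tested. With all 6 libraries 837 rose and 835 fell of 15510 tested.

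PLK3, a related kinase of the DNA damage response that can phosphorylate p53, had 31.3, 31.7 and 22.3 CPM in HC278 cells and 23.3, 24.8 and 21.5 CPM in DMSO cells. HC278 replicates 1 and 2 were above every DMSO library, and replicate 6 was among them. For PLK3 the log2 fold change was 0.29 ± 0.17 (SE; adjusted p = 0.334), and 0.44 ± 0.10 without HC278 replicate 6 (adjusted p = 0.0158), the opposite direction to PLK2.
ZMAT3, an RNA-binding protein through which p53 acts on splicing, had 18.5, 21.2 and 38.2 CPM in HC278 cells and 24.0, 25.5 and 30.52 CPM in DMSO cells. HC278 replicate 6 was the highest library and HC278 replicates 1 and 2 the lowest. For ZMAT3 the log2 fold change was -0.04 with an interval from -0.74 to 0.66, and without HC278 replicate 6 it was -0.43 (adjusted p = 0.0446).
BTG2, an antiproliferative partner of mRNA deadenylases, had a mean of 31.5 ± 4.52 CPM in HC278 cells and 31.3 ± 1.68 CPM in DMSO cells (SD, n = 3 each). SESN1, a sestrin that holds back the growth kinase mTORC1, had 16.9 ± 2.76 CPM in HC278 cells and 16.7 ± 2.28 CPM in DMSO cells. Both log2 fold changes were 0.01, with intervals from -0.32 to 0.35 for BTG2 and from -0.40 to 0.42 for SESN1.

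The 4 targets of DNA repair and nucleotide supply did not pass with all 6 libraries. POLH, the polymerase eta that copies past ultraviolet lesions, had 39.4, 39.3 and 53.2 CPM in HC278 cells, against 58.5, 62.0 and 73.5 CPM in DMSO cells. No HC278 library reached the DMSO libraries. For POLH the log2 fold change was -0.56 ± 0.17 (SE; adjusted p = 0.0938), and -0.72 without HC278 replicate 6 (adjusted p = 0.00654). GTPBP2 overlaps POLH on the opposite strand with counts that are 76.8% of those of POLH, and whether the counting used strand is not given in the sources used here. Overlaps given here and below are of whole gene spans, and whether the exons overlap was not measured.
DDB2, which recognises ultraviolet lesions and carries the paired half-sites printed above, had 101, 89.6 and 68.4 CPM in HC278 cells and 78.9, 76.6 and 75.01 CPM in DMSO cells. HC278 replicates 1 and 2 were the highest libraries and HC278 replicate 6 the lowest. For DDB2 the log2 fold change was 0.17 ± 0.16 (SE; adjusted p = 0.581), and 0.31 ± 0.09 without HC278 replicate 6 (adjusted p = 0.0343).
RRM2B, the p53-inducible subunit of ribonucleotide reductase, had 38.0, 39.6 and 71.7 CPM in HC278 cells and 39.1, 40.9 and 51.5 CPM in DMSO cells. One library, HC278 replicate 6, was far above the rest. Its log2 fold change was 0.18 with all libraries and -0.18 without that one, and it passed in neither (adjusted p = 0.740 and 0.314).
XPC, a damage sensor of nucleotide excision repair, had 62.8 ± 12.4 CPM in HC278 cells and 60.0 ± 3.36 CPM in DMSO cells (SD, n = 3 each), with a log2 fold change of 0.07 and an interval from -0.33 to 0.47.

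Of the death receptors, 3 of 4 were tested and none passed with all 6 libraries. FAS, the receptor of FAS ligand, had 21.5, 26.8 and 33.9 CPM in HC278 cells, against 37.6, 41.8 and 45.8 CPM in DMSO cells. All HC278 libraries were below all DMSO libraries. For FAS the log2 fold change was -0.61 ± 0.19 (SE), with a 95% interval from -1.07 to -0.15 and an adjusted p of 0.101, and without HC278 replicate 6 it was -0.79 (adjusted p = 0.00772). ACTA2 overlaps FAS on the opposite strand with counts that are 232% of those of FAS.
EDA2R, a receptor of the ectodysplasin A2 ligand, had 20.6, 22.8 and 42.6 CPM in HC278 cells and 29.5, 31.5 and 38.4 CPM in DMSO cells. HC278 replicates 1 and 2 were the lowest libraries and HC278 replicate 6 the highest. For EDA2R the log2 fold change was -0.21 ± 0.30 (SE; adjusted p = 0.726), and -0.61 ± 0.14 without HC278 replicate 6 (adjusted p = 0.0170).
TNFRSF10B, the TRAIL receptor DR5, had 72.2, 84.6 and 112 CPM in HC278 cells and 86.5, 90.1 and 105 CPM in DMSO cells. The groups overlapped widely. For TNFRSF10B the log2 fold change was -0.07, with an interval from -0.53 to 0.38. RHOBTB2 overlaps it on the opposite strand with counts that are 22.6% of its own.
TNFRSF10C, a TRAIL receptor without a signalling domain, was not tested, with 3, 0 and 2 counts in HC278 libraries and 0, 0 and 3 counts in DMSO libraries.

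**Figure D4:**
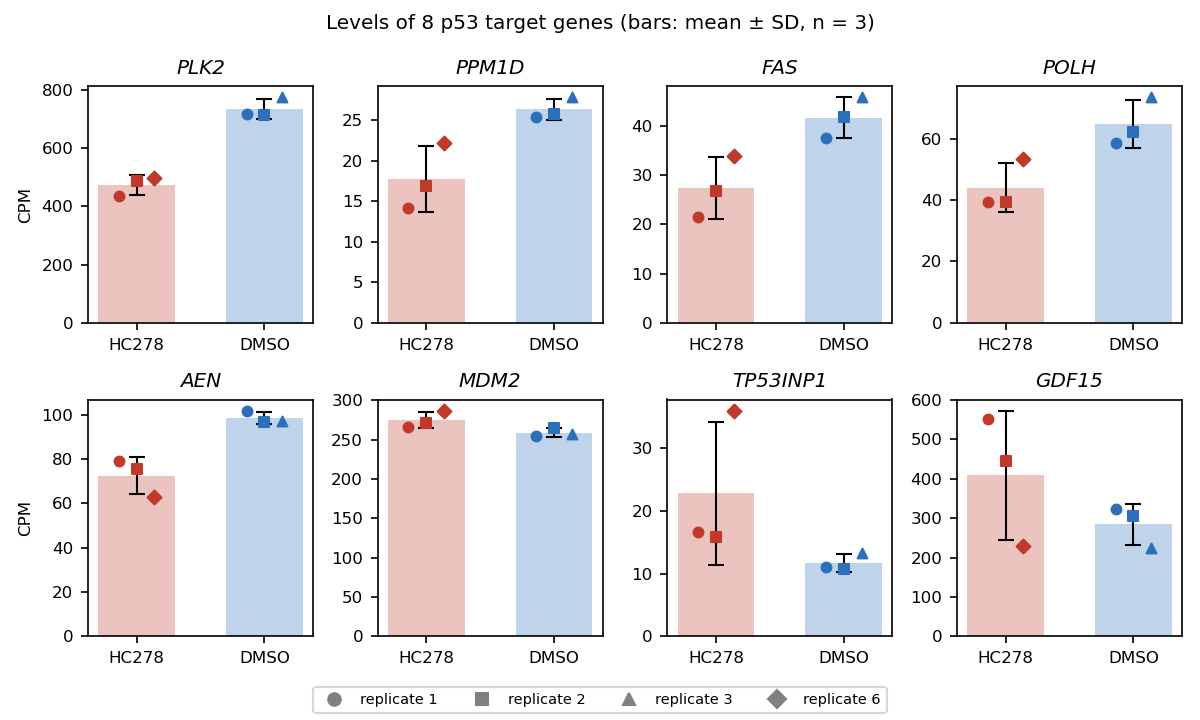
CPM of 8 p53 targets, with bars at the mean, error bars of ± 1 SD (n = 3 each) and a point for each library, HC278 to the left of DMSO and axes from 0. The HC278 points lie below all DMSO points for PLK2, PPM1D, FAS, POLH and AEN and above them for MDM2 and TP53INP1, and those of GDF15 span 229.8 to 551 CPM.

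The 7 targets that act on cell death and survival inside the cell did not pass with all 6 libraries, and they lay in both directions. TP53INP1, a stress-induced nuclear protein that assists p53 phosphorylation and autophagy, had 16.6, 15.9 and 36.0 CPM in HC278 cells, against 11.1, 10.7 and 13.3 CPM in DMSO cells. All HC278 libraries were above all DMSO libraries, replicate 6 by the widest margin. For TP53INP1 the log2 fold change was 0.97 ± 0.34 (SE), the highest of the 29 members, with an interval from 0.13 to 1.80 and an adjusted p of 0.135. Without HC278 replicate 6 it was 0.47 ± 0.13 and passed (adjusted p = 0.0281). NDUFAF6 overlaps it on the opposite strand with counts that are 121% of its own.
AEN, an apoptosis-enhancing nuclease, had 78.9, 75.4 and 63.0 CPM in HC278 cells, against 102, 96.7 and 97.1 CPM in DMSO cells. The groups did not overlap, and replicate 6 was the lowest library rather than the one nearest to DMSO. For AEN the log2 fold change was -0.44 ± 0.12 (SE; adjusted p = 0.0729), and -0.36 without HC278 replicate 6 (adjusted p = 0.0168).

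RPS27L, a ribosomal protein relative that binds MDM2, had 659.8, 583 and 339 CPM in HC278 cells and 497, 478 and 387 CPM in DMSO cells. PHLDA3, an inhibitor of the survival kinase AKT, had 189, 155 and 94.7 CPM in HC278 cells and 142, 119 and 95.2 CPM in DMSO cells. In both genes HC278 replicates 1 and 2 were the highest libraries and HC278 replicate 6 the lowest. LACTB overlaps RPS27L on the opposite strand with counts that are 42.4% of those of RPS27L. Their log2 fold changes were 0.22 ± 0.27 and 0.30 ± 0.28 (SE) with all libraries, and 0.45 (adjusted p = 0.0358) and 0.53 (adjusted p = 0.0503) without HC278 replicate 6.
TP53I3, a quinone oxidoreductase linked to oxidative stress, had 47.1 ± 8.41 CPM in HC278 cells and 44.7 ± 4.26 CPM in DMSO cells (SD, n = 3 each). TRIAP1, a small inhibitor of apoptosis, had 30.9 ± 6.997 CPM in HC278 cells and 33.0 ± 2.95 CPM in DMSO cells. BLOC1S2, a subunit of complexes that sort lysosomal cargo, had 74.5 ± 12.003 CPM in HC278 cells and 82.5 ± 3.24 CPM in DMSO cells. In these 3 genes the difference between means was smaller than the SD of the HC278 libraries, and the log2 fold changes lay between -0.15 and 0.07.

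Of the metabolic and mitochondrial targets, 3 of 5 were tested and none passed with all 6 libraries. FDXR, the ferredoxin reductase of mitochondrial electron transfer, had 133, 105 and 61.8 CPM in HC278 cells and 92.1, 83.0 and 68.6 CPM in DMSO cells. HC278 replicates 1 and 2 were above all DMSO libraries and HC278 replicate 6 below them. For FDXR the log2 fold change was 0.30 ± 0.29 (SE; adjusted p = 0.582), and 0.55 ± 0.16 without HC278 replicate 6 (adjusted p = 0.0333).
TIGAR, a fructose bisphosphatase that slows glycolysis, had 21.6, 29.7 and 34.5 CPM in HC278 cells, against 35.3, 35.2 and 41.7 CPM in DMSO cells. The groups did not overlap, although HC278 replicate 6 came close to DMSO replicates 1 and 2. For TIGAR the log2 fold change was -0.39 ± 0.19 (SE; adjusted p = 0.270), and -0.55 without HC278 replicate 6 (adjusted p = 0.0363). AC008012.1 overlaps TIGAR on the same strand with counts that are 27.7% of those of TIGAR. Of TIGAR's transcript sequence, 42.6% is shared with other annotated genes in stretches of 50 bases, mostly with AC008012.1, so that its counts are uncertain. The shares were 16.1% for PHLDA3, 12.2% for ACER2, 12.1% for TRIM22 and at most 5.34% for the other tested members.
ACER2, an alkaline ceramidase of the Golgi, had 0.280, 0.507 and 2.48 CPM in HC278 cells and 0.657, 0.665 and 1.65 CPM in DMSO cells. HC278 replicate 6 was highest and HC278 replicates 1 and 2 lowest. The interval of its log2 fold change, from -1.88 to 2.17, was the widest of the members.
SPATA18, which takes part in mitochondrial quality control, was not tested, with 1 count in each HC278 library and none in DMSO libraries. CMBL, a hydrolase, was not tested either, with 2, 1 and 0 counts in HC278 libraries and 0, 1 and 1 counts in DMSO libraries.

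GDF15 and TRIM22, the secreted and the antiviral member, did not pass with all 6 libraries. GDF15, a stress-induced cytokine that also answers to ATF4 and CHOP, had 551, 445 and 229.8 CPM in HC278 cells and 323, 306 and 225 CPM in DMSO cells. HC278 replicates 1 and 2 were the highest libraries, and HC278 replicate 6 lay near DMSO replicate 3, the lowest. For GDF15 the log2 fold change was 0.52 ± 0.33 (SE), with an interval from -0.29 to 1.33 and an adjusted p of 0.388. Without HC278 replicate 6 it was 0.80 ± 0.17, the highest of the members in that fit, and passed (adjusted p = 0.0150).
TRIM22, a ubiquitin ligase that interferon also induces, had 3.54, 3.80 and 9.06 CPM in HC278 cells and 3.82, 5.47 and 5.61 CPM in DMSO cells. Its highest library was HC278 replicate 6 and the groups overlapped. For TRIM22 the log2 fold change was 0.14 with all libraries and -0.44 without HC278 replicate 6, and it passed in neither (adjusted p = 0.87 and 0.121). TRIM5 overlaps it on the opposite strand with counts that are 754% of its own.

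Levels are compared between members per summed exon length, in the deposited TPM of DMSO cells. That length was 8825 bp for RPS27L and 4647 bp for PLK2, and the order given here depends on it. Transcript lengths in these cells were not measured. PLK2 at 509 TPM and GDF15 at 434 TPM were highest, followed by CCNG1 at 187 TPM, RPS27L at 164 TPM and PHLDA3 at 116 TPM. MDM2 and TP53I3 stood together at 61.8 TPM. The lowest tested members were MDM4 at 5.32 TPM, TRIM22 at 2.70 TPM and ACER2 at 1.18 TPM. The median of the 29 members was 36.5 TPM, against 10.4 TPM over all tested genes.

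CDKN1A, which encodes the cyclin-dependent kinase inhibitor p21 and is the best known arrest gene among p53 targets, had 419, 409.8 and 312 CPM in HC278 cells and 352, 343 and 323 CPM in DMSO cells. HC278 replicates 1 and 2 were above every DMSO library and HC278 replicate 6 was below them. The interval of its log2 fold change ran from -0.20 to 0.53, and without HC278 replicate 6 the value was 0.28 ± 0.08 (SE) and passed (adjusted p = 0.0366).

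A list of 24 relatives and regulators of p53 had 22 tested members, with log2 fold changes above 0 in 11 and below 0 in 11. None of the 22 rose and 1 (4.55%) fell, beside 5.4% and 5.38% of all tested genes. That gene was USP10, a deubiquitinase that stabilises p53, with 58.7 ± 5.59 CPM in HC278 cells and 88.2 ± 4.76 CPM in DMSO cells (SD, n = 3 each) and a log2 fold change of -0.59 (adjusted p = 0.0298). Without HC278 replicate 6, 2 of that list (9.09%) rose and 9 (40.9%) fell, beside 19.8% and 20.7% of all genes in that fit.
A list of 52 further p53 targets had 50 tested members, of which 6 (12%) rose and 4 (8%) fell, beside 5.4% and 5.38% of all tested genes, and log2 fold changes lay between -1.34 and 1.61 (median 0.09). CSF1, the growth factor of macrophages, was called with the smallest adjusted p, at 205 ± 16.2 CPM in HC278 cells and 67.1 ± 0.985 CPM in DMSO cells (log2 fold change 1.61, adjusted p = 0.00393). SYTL1 rose by 1.22, ORAI3, a calcium channel subunit, by 1.35 and TSKU, a secreted proteoglycan, by 0.69 on the log2 scale. These and CSF1 are the 4 of the list with the smallest adjusted p, and the others that rose are not named. The 4 that fell, named here after their values were seen, were GADD45A, a DNA damage and growth arrest gene (log2 fold change -0.58, adjusted p = 0.0264), IKBIP (-0.54), TNFRSF10D, a decoy receptor of TRAIL (-0.56), and DUSP14 (-0.63). In the fit without HC278 replicate 6 the list held 13 (26%) that rose and 11 (22%) that fell, near the 19.8% and 20.7% of all genes in that fit.

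The division genes moved together in 1 direction. Of 35 genes of DNA replication and mitosis that fall when cells leave the cycle, 24 (68.6%) fell and none rose with all 6 libraries. Over all tested genes 5.38% fell and 5.4% rose. The 35 were listed for that direction, with earlier results of these data known, so their fall is not an independent test. The median log2 fold change of the 35 was -1.03, and all 35 fell without HC278 replicate 6, beside 20.7% of all genes in that fit. MCM3, a subunit of the replicative helicase, had 42.7, 48.6 and 36.4 CPM in HC278 cells, against 123, 114 and 119 CPM in DMSO cells. Every HC278 library was far below every DMSO library, with a log2 fold change of -1.48 ± 0.14 (SE; adjusted p = 0.00486). The p53 targets, measured in the same libraries, had a median of 0.01 with all 6 and -0.13 without HC278 replicate 6.
Among 21 tested interferon-stimulated genes, which TRIM22 resembles in its induction, 3 (14.3%) rose and none fell, beside 5.4% and 5.38% of all tested genes. Their median log2 fold change was 0.83, and HC278 replicate 6 was the highest library in 16 (76.2%), against 30.8% of all tested genes. Without that library 7 (33.3%) rose and 1 (4.76%) fell, beside 19.8% and 20.7% of all genes in that fit, and the list's median was 0.28. Among 17 targets of ATF4 and CHOP, the factors GDF15 also answers to, 2 (11.8%) rose and 5 (29.4%) fell, with a median log2 fold change of -0.71. Without HC278 replicate 6, 3 (17.6%) of these rose and 10 (58.8%) fell, with a median of -0.45. Among 12 targets of FOXO factors 3 (25%) rose and none fell, with a median of 0.18. Without HC278 replicate 6, 5 (41.7%) of these rose and 1 (8.33%) fell, again with a median of 0.18. For the ATF4 and CHOP list and the FOXO list, too, 5.4% of all tested genes rose and 5.38% fell with all 6 libraries. Without HC278 replicate 6 the shares of all genes in that fit were 19.8% and 20.7%.

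**Figure D5:**
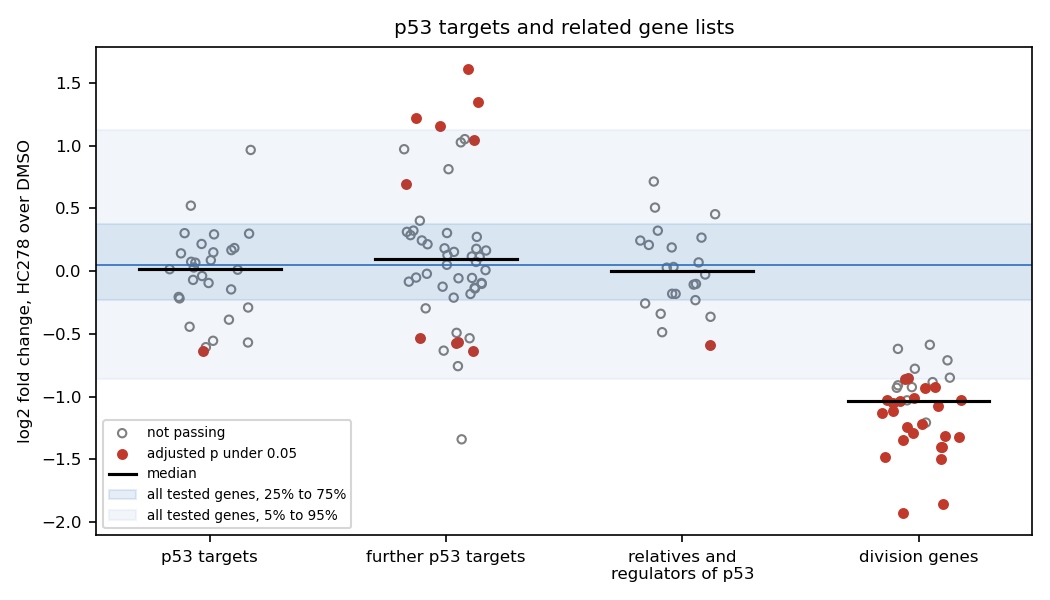
Log2 fold change of HC278 over DMSO with all 6 libraries for the tested genes of 4 lists, with calls at an adjusted p under 0.05 filled in red, a black line at each list's median, a blue line at the median of all tested genes and bands that hold their middle 50% and 90%. The p53 targets lie about the line of all genes, with 1 call among 29, and the 35 division genes lie below it, with 24 calls.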

How the data were processed

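RNA sequencing was done on 3 HC278 and 3 DMSO libraries, made with a stranded mRNA kit per the labels' protocols; per the submitters' processing notes the genome build was hg38. Which aligner, counter, strand setting and gene annotation were used is not given in the sources used here. Per the file headers, the authors deposited raw counts per gene, TPM and RPKM. The authors' deposited column named CPM is a scaled signal, since its sums run from 871859 to 1091290. Tests used the counts alone, TPM served for levels between genes, and RPKM with GENCODE 29 gave exon lengths; 96.4% of gene identifiers are in that release, and 79.1% of those have the same coordinates there.

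The test was edgeR's quasi-likelihood test, version 4.0.16 under R 4.3.3 (glmQLFit and glmQLFTest, TMM factors, filterByExpr with a minimum count of 10), without a replicate block. Called genes have an adjusted p under 0.05 (Benjamini-Hochberg, 15510 genes). The SE of a log2 fold change is its size over the root of the F statistic, and intervals are at 95%. CPM values given are counts over the TMM-scaled library size. TMM factors ran from 0.903 to 1.12, and the floor of 3 counts covers counting error only. The common biological coefficient of variation was 26.0%, and 12.7% without HC278 replicate 6.

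In counts simulated with each gene's estimated spread (15272 genes), 20% of 2-fold and 89% of 4-fold changes were recovered among 100 genes each. There 7 unchanged genes were called. Genes were drawn independently, without the deviations that many genes share within HC278 replicate 6 or DMSO replicate 3. The shares recovered therefore do not give the power of these libraries. Alternatives were DESeq2 1.42.0, its size factors within edgeR, library size alone, limma-voom (limma 3.58.1) with and without library weights, other filters, the replicate block, a loess trend on gene length (span 0.5) and libraries left out. The rule for named genes took all members, CDKN1A and, of each further list, its counts and at most 4 called genes. Outside that rule, the 4 further p53 targets that fell are named as well. MCM3 alone is named from the division genes, and the interferon, ATF4 and CHOP and FOXO lists are given as counts. In addition 2 genes of the rule and lists are not reported here. The members, lists and settings were chosen with earlier results of these data known. The deposited table held 0 columns of other samples.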

Additional observations from a re-analysis of the deposited data

How the results depend on the processing

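The count of called p53 targets depended on which libraries were weighted. Members higher and lower numbered 0 and 1 with all 6 libraries, 0 and 1 with DESeq2 size factors, library size alone, limma-voom or a filter of 10 counts in 3 libraries (PLK2 in each but library size alone, which called AEN instead), 1 and 6 with DESeq2, 0 and 0 with no filter, 0 and 4 with the length trend taken out, 7 and 10 with library weights, and 6 and 9 without HC278 replicate 6 and DMSO replicate 3. With 1 library left out they ranged from 0 to 6 higher and from 0 to 10 lower, the higher end in each case without HC278 replicate 6. Without any one of the other 5 no member was called by edgeR, while of all genes 0 to 401 were higher and 0 to 418 lower. In those fits 2 to 6 of the 29 members had an unadjusted p under 0.05, beside 17.9% to 23.1% of all genes tested. Among all genes, 837 higher and 835 lower became 1364 and 1454 with DESeq2 and, of 15510 tested, 4583 and 4613 with library weights. They became 824 and 844 with DESeq2 size factors and 709 and 650 with library size alone. With limma-voom they were 834 and 862, and with a filter of 10 counts in 3 libraries 833 and 835. They became 553 and 662 with no filter, 1264 and 1427 with the length trend taken out, and 3048 and 3274 without both libraries. With 1 library left out they ranged from 0 to 3133 higher and from 0 to 3280 lower. The 0 without DMSO replicate 2 stood beside 2864 genes (17.9%) at an unadjusted p under 0.05. The cause was not tested. PLK2 kept its call in 9 of 16 alternatives and lost it with library size alone (adjusted p = 0.0608), with no filter (0.0604) and without each library other than HC278 replicate 6.

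With the replicate number as a block, 7 members (24.1%) were higher and 10 (34.5%) lower. Among all tested genes 3954 (25.5%) were higher and 4218 (27.2%) lower in that fit. The groups share only numbers 1 and 2, so the block leaves HC278 replicate 6 and DMSO replicate 3 without a partner and outside the comparison. Deviations from the group means correlated across genes at 0.517 for the libraries numbered 1 and 0.183 for those numbered 2, but at 0.384 for HC278 replicate 2 with DMSO replicate 1 and 0.686 for HC278 replicate 6 with DMSO replicate 3, so the numbers were not taken as pairs. Under the block the log2 fold change changed sign in MDM4 (-0.14), SESN1 (-0.010), BTG2 (-0.065), RRM2B (-0.044), XPC (-0.045), TRIAP1 (0.021), ACER2 (-0.74) and TRIM22 (-0.33). Without both unpartnered libraries these 8 genes gave, in that order, -0.14, -0.011, -0.063, -0.045, -0.039, 0.020, -0.73 and -0.34.

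Of 480 values of single genes under alternatives, 346 kept direction and side of the threshold, 75 came to pass, 7 ceased to pass and 52 changed sign, none of these last a called value. Sign changes were -0.11 in MDM4, -0.015 in SESN1, -0.011 in BTG2, -0.045 in RRM2B, 0.068 in TRIAP1, -0.50 in ACER2 and -0.39 in TRIM22 with library weights. They were -0.0088 in MDM4, -0.023 in SESN1 and -0.027 in BTG2 with no filter, -0.28 in ACER2 with limma-voom, and -0.023 in TP53I3 and -0.026 in BTG2 with the length trend taken out. With 1 library left out, log2 fold changes ranged from -0.12 to 0.12 in MDM4, -0.13 to 0.13 in SESN1, -0.024 to 0.21 in TP53I3, -0.43 to 0.15 in ZMAT3, -0.11 to 0.10 in BTG2, -0.18 to 0.34 in RRM2B, -0.090 to 0.20 in XPC, -0.27 to 0.058 in TNFRSF10B, -0.21 to 0.078 in TRIAP1, -1.32 to 0.73 in ACER2 and -0.44 to 0.37 in TRIM22. In the simulation, which lacked deviations shared by many genes within a library, most 2-fold changes were missed. A member that did not pass is not shown to be unchanged.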
